A study of Homo sapiens with 8 samples.

Results

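The 9 genes described here encode parts of the NOTCH signalling pathway: the receptors NOTCH1, NOTCH2 and NOTCH3, the ligands DLL1, DLL3 and JAG1, and the transcription factors HES1, HES5 and HES6. They were taken by gene symbol from a table of 35940 gene symbols, and all 9 were found in it. None of the 9 is itself a proneural factor such as those of the NEUROG or ATOH families, and such factors were read from a separate list. The 9 genes were measured in 8 RNA-seq libraries.

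In the NOTCH pathway a ligand on one cell binds a receptor on its neighbour, which is then cut by an ADAM protease and by the gamma-secretase complex. The freed intracellular domain enters the nucleus, joins the DNA-binding protein RBPJ and the coactivator MAML, and switches on genes such as HES1 and HES5, whose products are basic helix-loop-helix (bHLH) repressors. In the embryonic nervous system these repressors hold proneural bHLH genes in check and keep cells as progenitors, while cells with high proneural activity raise DLL1, DLL3 and HES6 and become neurons.

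All libraries came from ESI017, an established human embryonic stem cell line, recorded as wild type. Cells were placed in N2B27 medium, which contains no serum, with SB at 10 μM and LDN at 100 nM, under a protocol that the labels call a differentiation to posterior neural fate. WNT3A protein at 300 ng/mL was added at 34 h, and bulk poly(A) RNA was taken at 34, 42, 50 and 72 h, which is 0, 8, 16 and 38 h after the addition. Each time point had 2 libraries, 1 from each of 2 batches, and the submitters describe the second batch as an independent biological repeat. SB and LDN were present for every library. Cultures without WNT3A were not analysed here, so elapsed time and WNT3A cannot be told apart. The labels do not spell out whether the 34 h cells were taken just before WNT3A was added.

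Values are TPM, a share of a library's transcripts corrected for transcript length, so levels of different genes can be set side by side. TPM keeps no read number: sequencing depth is unknown here, and no counting interval was computed. Between 13860 and 14004 gene symbols reached 1 TPM in a library, and mitochondrial transcripts held 8.70% to 11.2% of TPM. Rank correlation over all genes was 0.980 to 0.984 between libraries of 1 time point and 0.933 to 0.983 between time points. Changes are differences of log2(TPM + 1), which understate the change of genes with low values. They were tested with limma over 14908 genes that reached 1 TPM in at least 2 libraries, and a gene was called changed at a Benjamini-Hochberg adjusted p under 0.05. In bulk RNA, fewer cells of a type and less RNA per cell cannot be told apart.

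NOTCH3 and JAG1, and less firmly NOTCH2, were higher at 72 h than at 34 h, while NOTCH1, DLL1, DLL3, HES1 and HES6 did not pass the test. HES5 was at most 0.484 TPM in any library and was the 1 member too low to be tested. At 72 h against 34 h, 3 of the 8 tested members were called, all of them higher, where 24.0% of all tested genes were called, 12.7% higher and 11.3% lower. At 42 h, 8 h after WNT3A, limma called 0 of 8, with a background of 2.58%, and at 50 h 0 of 8 with a background of 6.26%. From 42 to 50 h it called 0 of 8 against a background of 0.0939%, and from 50 to 72 h 0 of 8 against 7.33%. At an unadjusted p under 0.05 there were 3 of 8 members at 42 h, 4 at 50 h, 3 at 72 h, 0 from 42 to 50 h and 5 from 50 to 72 h, where the shares of all tested genes were 13.9%, 20.6%, 36.9%, 9.35% and 22.4%. The contrasts with 34 h share its 2 libraries. The moderated F-test of limma over the 3 contrasts with 34 h called NOTCH2, NOTCH3 and JAG1, with a background of 17.4%. The median log2 change of the 8 tested members at 72 h was 0.43, beside 0.06 for all tested genes.

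**Figure D1:**
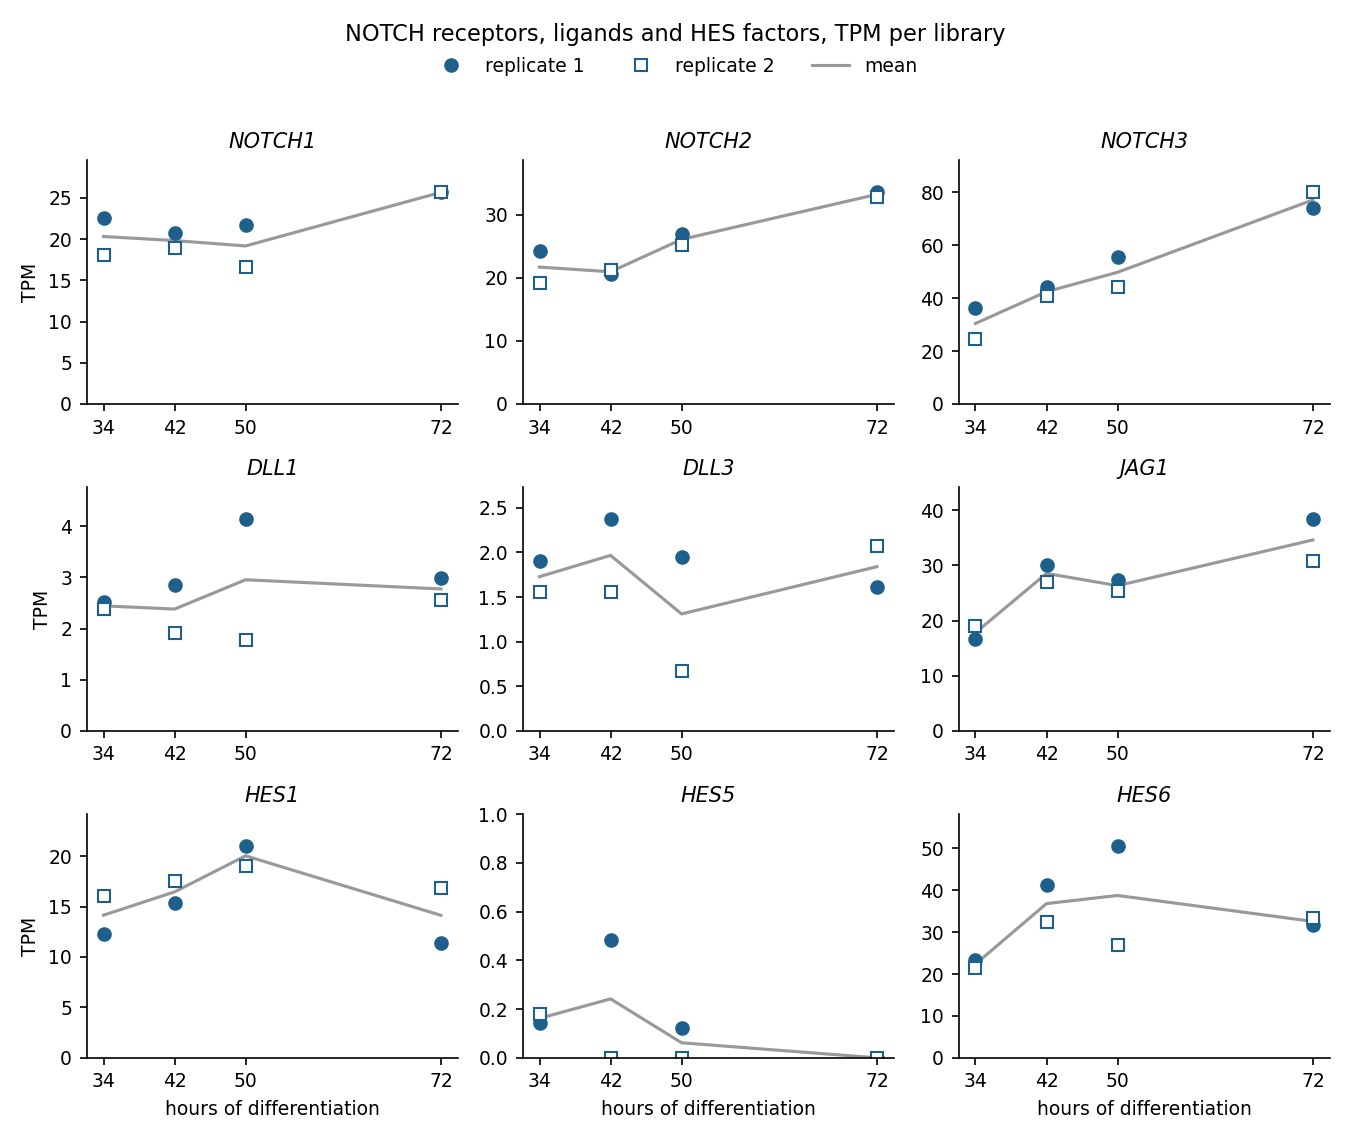
TPM of the 9 genes (vertical axes, each from 0 and on its own scale) against hours of differentiation (horizontal axes); filled circles are replicate 1, open squares replicate 2 and the line joins the means. NOTCH3 runs from 24.6 and 36.3 TPM at 34 h to 74.2 and 80.1 at 72 h, JAG1 stands higher in all 6 libraries after 34 h, and HES5 stays under 0.5 TPM.

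NOTCH3, a receptor also known for its part in vascular smooth muscle, had the highest mean of the 9 genes at every time point, although its libraries overlapped with those of HES6 at 42 and 50 h. Its gene lies on chromosome 19 (chr19:15159038-15200981, minus strand, GRCh38 in GENCODE release 29). It measured 36.3 and 24.6 TPM in replicates 1 and 2 at 34 h, 44.2 and 40.7 at 42 h, 55.5 and 44.1 at 50 h, then 74.2 and 80.1 at 72 h. Every later library was above both 34 h libraries, and the 72 h libraries were above all others. The mean went from 30.5 ± 8.33 (SD, n = 2) to 77.1 ± 4.15 TPM (SD, n = 2), or from above 68.6% to above 86.9% of the tested genes. The log2 change at 72 h was 1.34 (SE 0.19, limma adjusted p = 0.00169), and it was 1.01 within replicate 1 and 1.67 within replicate 2. At 50 h the log2 change was 0.71 (limma adjusted p = 0.0664). That comparison passed with the replicate number as a block, at an adjusted p of 0.0435 in limma, and without replicate 1 of 34 h, at 0.0289. From 50 to 72 h the log2 change was 0.63 (limma adjusted p = 0.0859), with 0.0430 and 0.0423 when replicate 1 or replicate 2 of 34 h was left out.

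NOTCH2, on chromosome 1 (chr1:119911553-120069626, minus strand, GRCh38 in GENCODE release 29), rose at 72 h. It measured 24.3 and 19.1 TPM at 34 h, 20.7 and 21.3 at 42 h, 27.0 and 25.2 at 50 h, then 33.6 and 32.9 at 72 h. The 34 and 42 h libraries overlapped, whereas the 50 h libraries lay just above both and the 72 h libraries above all others. The log2 change at 72 h was 0.60 (SE 0.13, limma adjusted p = 0.0147), with 0.45 within replicate 1 and 0.75 within replicate 2. This call was lost when 1 library was left out in 3 cases: limma gave adjusted p = 0.0877 without replicate 2 of 34 h, 0.0788 without replicate 1 of 72 h and 0.0675 without replicate 2 of 72 h. The near-identical partial copy NOTCH2NLA was listed at 1.41 to 4.30 TPM and the pseudogene NOTCH2P1 at 0, so the division of reads between NOTCH2 and its copies is uncertain.

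NOTCH1, a receptor that helps to maintain neural progenitors in the embryo, lies on chromosome 9 (chr9:136494433-136545786, minus strand). It measured 22.6 and 18.1 TPM at 34 h, 20.7 and 18.9 at 42 h, 21.7 and 16.7 at 50 h, and 25.7 in both libraries at 72 h. The 72 h libraries were the highest and the other 3 time points overlapped. Its log2 change at 72 h was 0.33 (95% interval -0.04 to 0.70, limma adjusted p = 0.179). NOTCH4, the remaining receptor, was not a member. It was listed under 7 Ensembl identifiers, was at 0 in all libraries under the identifier of the primary assembly, and summed to 0.697 to 1.82 TPM over all of them.

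The 3 receptors were also taken as a pool. NOTCH1, NOTCH2 and NOTCH3 together held 83.2 and 61.8 TPM at 34 h, 85.6 and 80.9 at 42 h, 104 and 86.0 at 50 h, then 133 and 139 at 72 h. NOTCH3 held 41.7% ± 2.76 of the sum at 34 h, 51.0% ± 0.962 at 42 h, 52.3% ± 1.41 at 50 h and 56.7% ± 1.52 at 72 h (SD, n = 2 each). NOTCH1 went the other way, from 28.2% ± 1.51 at 34 h to 18.9% ± 0.491 at 72 h (SD, n = 2 each). For both receptors the 34 h shares did not overlap with those of any later time point. These shares were not tested.

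**Figure D2:**
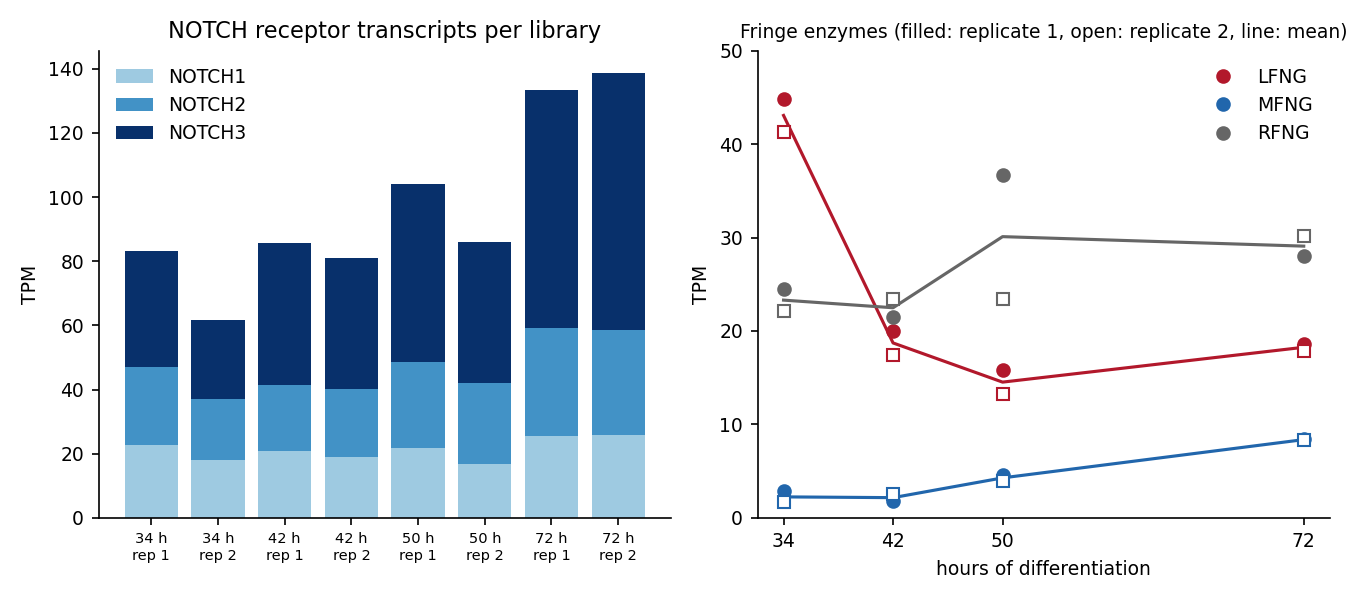
Left: stacked bars of NOTCH1, NOTCH2 and NOTCH3 TPM in each of the 8 libraries, with the vertical axis from 0; the sum is 83.2 and 61.8 at 34 h and 133 and 139 at 72 h, with NOTCH3 as the largest part. Right: TPM of the 3 fringe enzymes against hours of differentiation, with lines through the means; LFNG falls from 44.9 and 41.3 at 34 h to 20.0 and 17.5 at 42 h while MFNG reaches 8.43 and 8.32 at 72 h.

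Among the ligands, JAG1 was higher at 72 h than at 34 h and the Delta-like ligands were low throughout. JAG1, whose loss of 1 copy causes Alagille syndrome in humans, lies on chromosome 20 (chr20:10637684-10673999, minus strand, GRCh38 in GENCODE release 29). It measured 16.6 and 19.0 TPM at 34 h, 30.1 and 27.1 at 42 h, 27.3 and 25.4 at 50 h, then 38.4 and 30.8 at 72 h. All 6 later libraries were above both 34 h libraries, the 42 and 50 h libraries overlapped, and both 72 h libraries were above them. The mean went from 17.8 ± 1.66 (SD, n = 2) to 34.6 ± 5.35 TPM (SD, n = 2). The log2 change at 72 h was 0.92 (SE 0.14, limma adjusted p = 0.00290), with 1.16 within replicate 1 and 0.67 within replicate 2. JAG1 at 42 h had a log2 change of 0.65 (SE 0.14) at an adjusted p of 0.0597 in limma, and at 50 h one of 0.54 at 0.0668. Neither passed in any of the 16 alternative fits. For JAG1 and NOTCH3 the 72 h call held in all 16.

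DLL1 is the ligand that differentiating neural precursors use to activate NOTCH in their neighbours, and DLL3 is a divergent family member that acts mainly inside the cell that makes it. DLL1 measured 2.51 and 2.38 TPM at 34 h, 2.84 and 1.92 at 42 h, 4.14 and 1.77 at 50 h, then 2.99 and 2.56 at 72 h. DLL3 measured 1.90 and 1.56 TPM at 34 h, 2.37 and 1.56 at 42 h, 1.95 and 0.675 at 50 h, then 1.61 and 2.07 at 72 h. For both genes the spread between the 50 h replicates was wider than any difference between time point means. At 72 h the 95% interval of the log2 change was -0.58 to 0.84 for DLL1 and -0.66 to 0.78 for DLL3. DLL1 was listed under 2 identifiers that were summed. The one outside the primary assembly held 1.28 TPM in replicate 1 of 42 h, 1.07 in replicate 2 of 50 h and 1.78 in replicate 2 of 72 h, and was at 0 in the other 5 libraries. Without it, the log2 change of DLL1 at 72 h was -0.37. JAG1 made up 80.9% ± 2.68 of the TPM of the 3 ligands at 34 h and 88.1% ± 1.65 at 72 h (SD, n = 2 each).

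**Figure D3:**
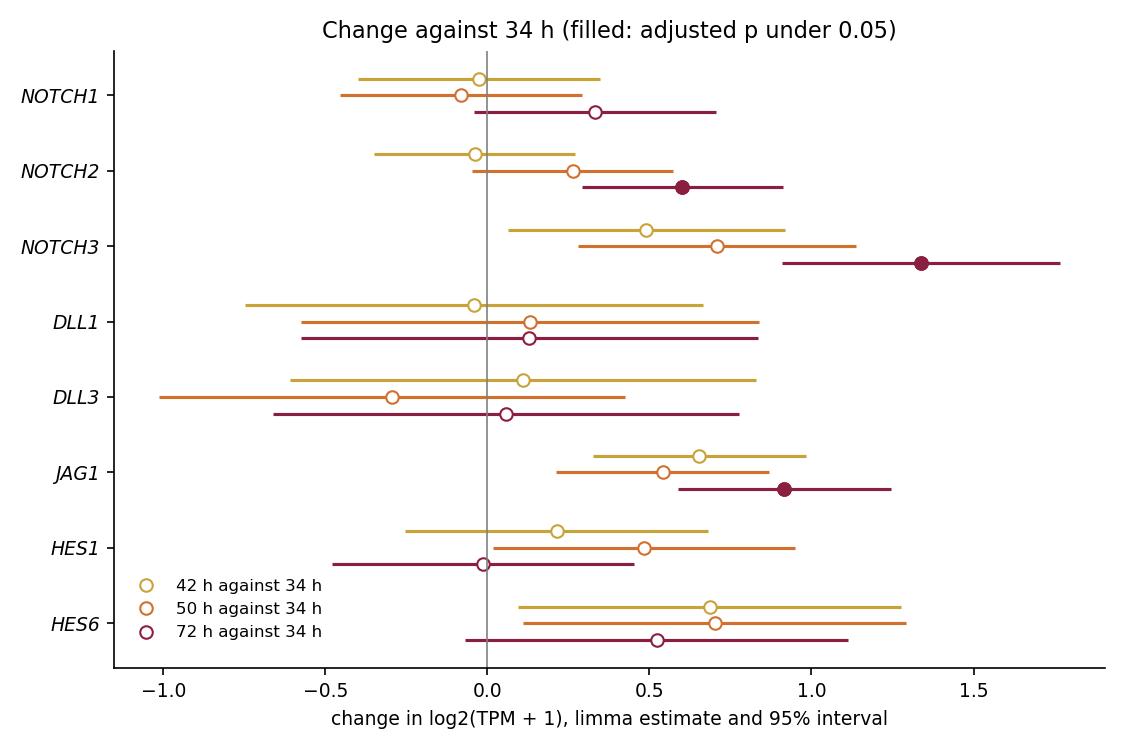
Change of log2(TPM + 1) against 34 h for the 8 tested genes, with the limma estimate (points) and its 95% interval (lines) at 42, 50 and 72 h; filled points have an adjusted p under 0.05. Only NOTCH2, NOTCH3 and JAG1 at 72 h are filled, at 0.60, 1.34 and 0.92.

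The 3 HES genes differed far more in level than in change. HES1, a repressor that NOTCH and other signals induce, lies on chromosome 3 (chr3:194136145-194138732, plus strand, GRCh38 in GENCODE release 29). It measured 12.2 and 16.0 TPM at 34 h, 15.4 and 17.5 at 42 h, 21.0 and 19.1 at 50 h, then 11.4 and 16.8 at 72 h. The 50 h libraries were the highest and the other time points overlapped. The log2 change was 0.48 at 50 h (SE 0.20, limma adjusted p = 0.227) and -0.01 at 72 h (95% interval -0.48 to 0.45, limma adjusted p = 0.972).

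HES5, a direct NOTCH target in neural progenitors, lies on chromosome 1 (chr1:2528745-2530245, minus strand). It was listed at 0.142 and 0.182 TPM at 34 h, 0.484 and 0 at 42 h, 0.124 and 0 at 50 h, and 0 in both libraries at 72 h. Its 2 identifiers were summed, and the one of the primary assembly was above 0 in 1 library alone, replicate 1 of 34 h. Its mean at 34 h exceeded that of 1.11% of the tested genes, and a value of 0 in TPM carries no detection limit.

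HES6, a HES family member that opposes HES1 and promotes neuronal differentiation, lies on chromosome 2 (chr2:238238267-238240662, minus strand). It measured 23.4 and 21.3 TPM at 34 h, 41.2 and 32.4 at 42 h, 50.5 and 26.9 at 50 h, then 31.7 and 33.4 at 72 h. All 6 later libraries were above both 34 h libraries, although replicate 1 of 50 h was far above replicate 2. Against 34 h, HES6 differed by 0.69 at 42 h, 0.70 at 50 h and 0.52 at 72 h on the log2 scale, each with an SE of 0.26, and the limma adjusted p-values were 0.277, 0.169 and 0.180. Without replicate 2 of 50 h the 50 h difference was 1.14 (limma adjusted p = 0.0136), and without replicate 1 it was 0.26 (limma adjusted p = 0.501), each resting on a single library assumed to vary like the other time points. The F-test, at an adjusted p of 0.207 in limma, gave 0.0488 without replicate 1 of 50 h and 0.0147 without replicate 2. At 72 h the adjusted p in limma was 0.0350 without replicate 1 of 50 h, 0.0337 without replicate 2 of 50 h, and 0.0321 when only the 34 and 72 h libraries were fitted. The ratio of HES6 to HES1 was 1.62 ± 0.409 at 34 h and 2.38 ± 0.553 at 72 h (SD, n = 2 each), at 1.91 and 1.33 against 2.77 and 1.99 in the single libraries. These ratios did not overlap, but the gap between them was smaller than the spread within either time point.

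HES1 and HES5 are textbook NOTCH targets whose promoters hold sites for RBPJ, yet they stood at very different levels in these libraries. The stretches below run from 110 to 21 bases before the start site, 5′ to 3′ on the gene strand, from RefSeq on GRCh38.p14. The start is the one RefSeq gives, which for HES6 lies inside the GENCODE span above, so its stretch lies within that span too. Capitals mark the RBPJ core GTGGGAA and the TATA core (TATAAA or TATATA, overlapping copies merged). They are shown because HES1 and HES5 hold an RBPJ core at almost the same place, 85 to 79 and 81 to 75 bases before the start, and HES6 holds none. HES3, which is not a member and was added after its values were seen, is the HES gene with the highest level. The regions are chr3:194136038-194136127 (plus strand) for HES1, chr1:2530284-2530373 (minus strand) for HES5, chr2:238240059-238240148 (minus strand) for HES6 and chr1:6244069-6244158 (plus strand) for HES3.
HES1: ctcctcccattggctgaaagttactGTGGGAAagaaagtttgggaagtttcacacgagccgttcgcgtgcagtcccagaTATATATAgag
HES5: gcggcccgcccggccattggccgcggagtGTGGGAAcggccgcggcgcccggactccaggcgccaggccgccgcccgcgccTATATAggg
HES6: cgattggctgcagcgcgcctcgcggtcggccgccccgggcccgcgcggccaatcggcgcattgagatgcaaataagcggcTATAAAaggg
HES3: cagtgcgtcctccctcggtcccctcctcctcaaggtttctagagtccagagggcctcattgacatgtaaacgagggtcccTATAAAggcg

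Promoter entries were matched for 7 of the 9 members: NOTCH1, NOTCH2, NOTCH3, JAG1, HES1, HES5 and HES6. DLL1 and DLL3 were not matched. Over the 250 bases before the start, the RBPJ core on either strand was found in HES1 and HES5 among the 7, and in 5.43% of 35116 promoters. HES5 held a second copy on the opposite strand, 224 to 218 bases before its start. Of the other HES and HEY promoters in the table, HES4, HEY2 and HEYL held it. The TATA core on the gene strand was found in HES1, HES5 and HES6, and in 9.51% of all promoters. The TCF/LEF core, the sequence bound by the nuclear effectors of WNT (CTTTG followed by AA, AT, TA or TT, on either strand), was found in 0 of the 7 members and in 12.0% of all promoters. The N-box CACNAG, which HES repressors bind, was found on either strand in HES1 and NOTCH3 and in 32.0% of all promoters. The bases G and C made up 59.2% (HES1) to 78.0% (NOTCH3) of the window in the 7 members, beside a median of 58.0% over all promoters. The shares were not corrected for this. These are matches of letters in a window and not measured binding.

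Other HES and HEY genes came from a list of NOTCH targets and HES cofactors. HES3, a HES gene of the early neural tube and isthmus, measured 117 and 81.8 TPM at 34 h, 318 and 263 at 42 h, 354 and 247 at 50 h, then 363 and 359 at 72 h. All 6 later libraries were above both 34 h libraries, and each was above the level of all 9 members in the same library. HES3 rose by 1.55 at 42 h, 1.59 at 50 h and 1.87 at 72 h on the log2 scale (SE 0.20 each), with limma adjusted p-values of 0.00617, 0.00321 and 0.000495. The 42 h call was lost without replicate 1 of 42 h, at a limma adjusted p of 0.0553. HEYL rose at 72 h from 0.733 and 0.886 TPM at 34 h to 3.09 and 3.30, and HEY2 fell from 2.44 and 1.73 to 0.640 and 0.650. HES2 measured 0.593 and 1.33 TPM at 34 h, 2.21 and 1.68 at 42 h, 2.32 and 2.75 at 50 h, then 0.321 and 0.237 at 72 h. It was called by the F-test and from 50 to 72 h, where it was lower by a log2 difference of -1.46 (SE 0.27, limma adjusted p = 0.0160), a call lost without any 1 of the libraries of 50 and 72 h. HES4 and HEY1 did not pass the test, and HES7, the oscillating HES gene of somite formation, was at most 0.222 TPM. NRARP, a feedback inhibitor that NOTCH induces, stayed between 27.1 and 35.6 TPM in all 8 libraries, with a log2 change at 72 h of -0.13 (SE 0.13, limma adjusted p = 0.478).

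**Figure D4:**
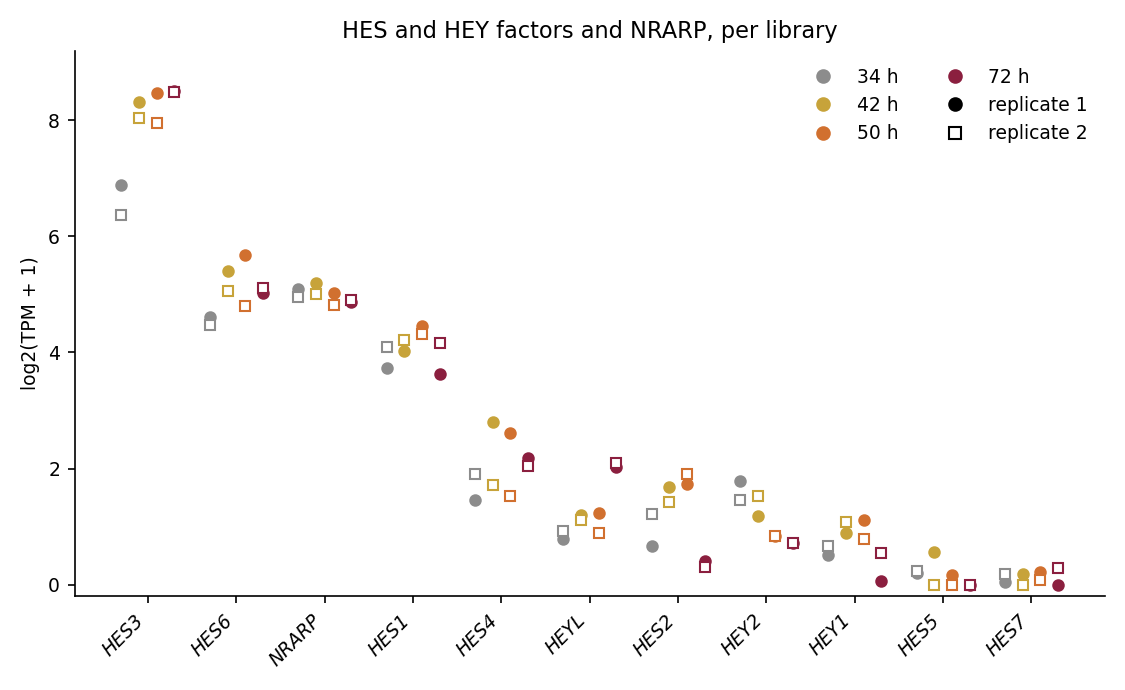
log2(TPM + 1) of the HES and HEY genes and NRARP in each library (vertical axis), coloured by time, with filled circles for replicate 1 and open squares for replicate 2. HES3 stands above all the others at every time point, HES1 and HES6 lie in the middle, and HES5 and HES7 lie near 0.

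The rest of the pathway was read from 7 lists holding 70 genes outside the members, of which 62 were tested. At 42 h 3 were higher and 1 lower, or 6.45% of the 62 beside 2.58% of all tested genes. At 50 h 4 were higher and 2 lower, or 9.68% beside 6.26%, and at 72 h 11 higher and 9 lower. The 20 called at 72 h were 32.3% of the 62, beside the 24.0% of all tested genes, and the median log2 change of the 62 was 0.08. LFNG, a fringe enzyme that adds sugar to NOTCH receptors and favours their activation by Delta-like over Jagged ligands, fell early and stayed low. It measured 44.9 and 41.3 TPM at 34 h, 20.0 and 17.5 at 42 h, 15.8 and 13.3 at 50 h, then 18.6 and 17.9 at 72 h. No later library reached the 34 h range, and the log2 changes of LFNG at 42, 50 and 72 h were -1.16, -1.51 and -1.19 (SE 0.13 each), with limma adjusted p-values of 0.00322, 0.000478 and 0.000569. MFNG, a related fringe enzyme, rose at 72 h by 1.56 on the log2 scale (SE 0.23, limma adjusted p = 0.00247), from 2.83 and 1.65 TPM at 34 h to 8.43 and 8.32. The third fringe enzyme, RFNG, measured 24.5 and 22.1 TPM at 34 h and 28.0 and 30.2 at 72 h and did not pass. EOGT, which adds another sugar to the same receptor repeats, fell at 72 h by 1.41 on the log2 scale.

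Among the other ligands, DLK1 changed most. DLK1 is a relative of the Delta-like ligands that lacks the motif they use to activate NOTCH. It measured 3.08 and 1.66 TPM at 34 h, 5.27 and 4.43 at 42 h, 8.44 and 11.2 at 50 h, then 253 and 206 at 72 h. The time points did not overlap, and the log2 change at 72 h was 6.12 (SE 0.23, limma adjusted p = 3.82e-06). CNTN1, an adhesion molecule also described as a NOTCH ligand, fell from 4.36 and 3.22 TPM at 34 h to 0.374 and 0.335 at 72 h. JAG2 stayed between 3.90 and 7.36 TPM, DNER did not pass, and DLL4, the Delta-like ligand of sprouting vessels, was at most 0.263 TPM.

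At 72 h limma called 2 of the 9 tested genes of the cutting machinery and 1 of the 16 tested nuclear genes, beside 24.0% of all tested genes. In the gamma-secretase group, PSEN2 rose at 42, 50 and 72 h, from 10.0 and 8.83 TPM at 34 h to 17.9 and 18.3 at 42 h and 14.7 and 17.8 at 72 h. Its partner NCSTN rose at 72 h with a limma adjusted p of 0.0497, which was 0.0596 with the replicate block, and the protease ADAM10 did not pass. Of the ubiquitin ligases, DTX4 rose at 72 h from 18.3 and 13.5 TPM to 41.9 and 36.4, a log2 change of 1.26 (SE 0.17, limma adjusted p = 0.00135). MIB1, which promotes the uptake of ligands, rose with a limma adjusted p of 0.0482 at 72 h and 0.0596 with the replicate block, and DTX2 and DTX3L fell. RBPJ lay between 43.3 and 62.2 TPM and MAML1 between 32.7 and 44.4, with no call, while RBPJL was at 0 and MAML2 at most 0.627 TPM. Of the 16 tested nuclear genes 1, the corepressor SPEN, rose at 72 h, where 12.7% of all tested genes were higher. Of the TLE corepressors that HES proteins recruit, TLE3 and TLE4 rose at 72 h and TLE1 and TLE2 fell. BHLHE40, from the list of NOTCH targets and HES cofactors, was low throughout. It fell from 1.53 and 2.15 TPM at 34 h to 0.103 and 0.0523 at 72 h. Of the 20 pathway genes called at 72 h, 8 kept their 72 h call in all 16 alternative fits: DLK1, CNTN1, LFNG, MFNG, DTX4, HES3, BHLHE40 and TLE2. The other 12 calls were lost in at least 1 alternative. MIB1 was called in 2 of the 16, NCSTN in 3, DTX2 in 4, TLE4 in 6 and TLE1 in 10, and HEY2 and DTX3L in 12 each, lost without any 1 of the libraries of 34 and 72 h. EOGT and SPEN were called in 13 each, PSEN2 in 14, and HEYL and TLE3 in 15 each. EOGT was lost with no filter on low values and without replicate 2 of 34 h or replicate 1 of 72 h, and SPEN without replicate 1 of 34 h or either library of 72 h. PSEN2 was lost without replicate 2 of 34 h or of 72 h, HEYL without replicate 2 of 72 h and TLE3 without replicate 1 of 72 h. Of the 4 pathway calls at 42 h (LFNG, PSEN2, HES3 and TLE3), those of PSEN2 and TLE3 were lost without any 1 of the libraries of 34 and 42 h. Of the 6 at 50 h (DLK1, LFNG, PSEN2, HES3, TLE2 and TLE3), those of PSEN2 and TLE3 were lost without either library of 34 h or replicate 2 of 50 h. That of TLE2 was lost without replicate 1 of 34 h or either library of 50 h.

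**Figure D5:**
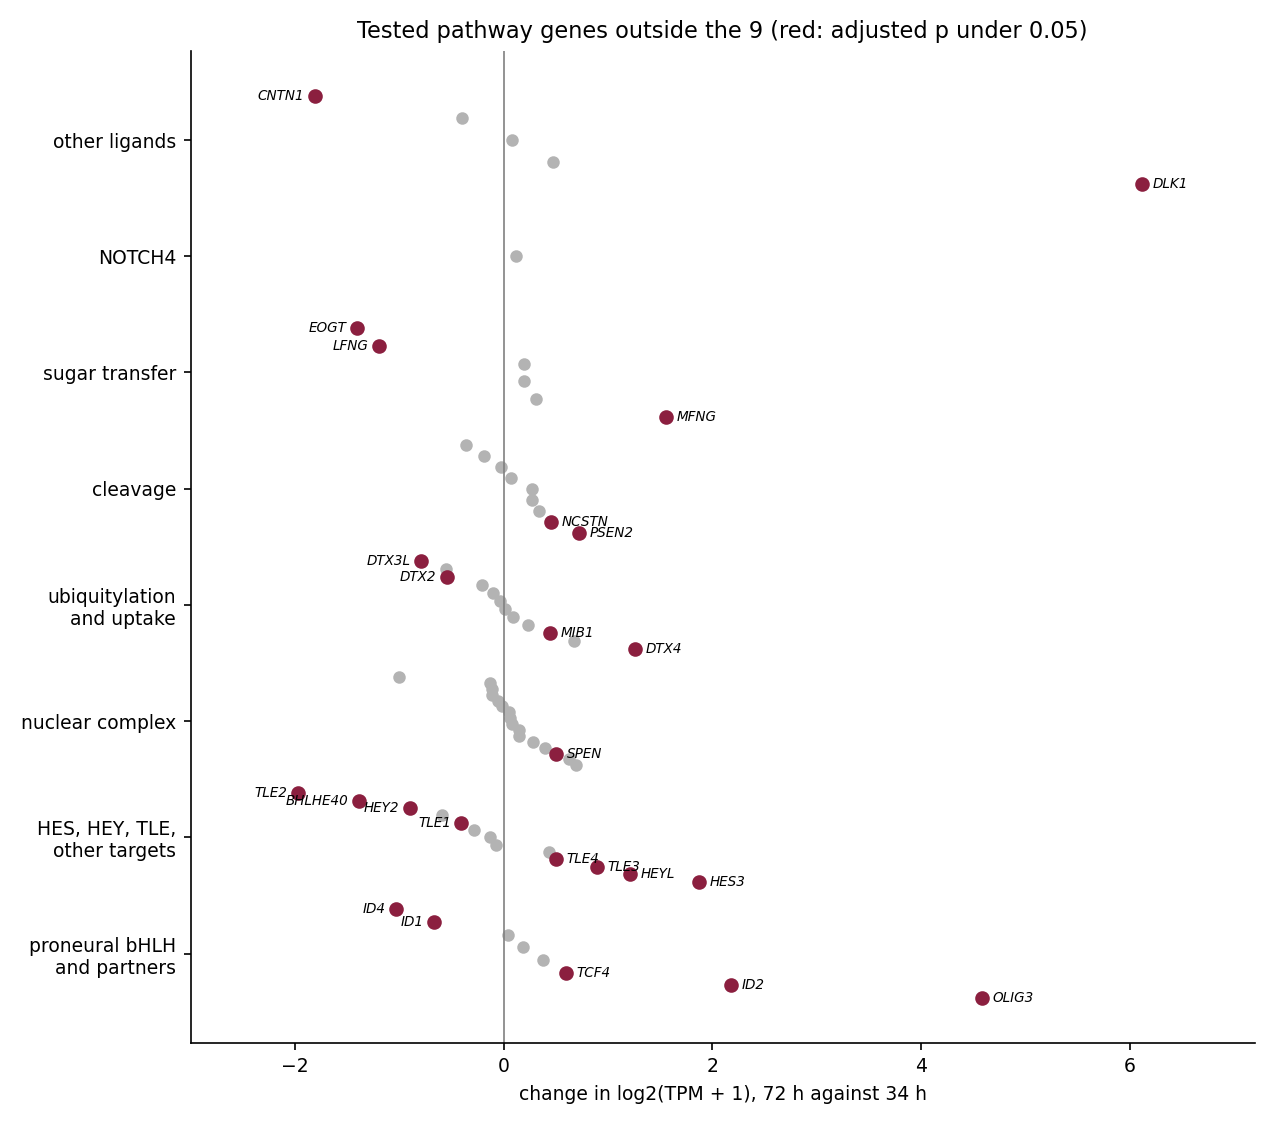
Change of log2(TPM + 1) at 72 h against 34 h (horizontal axis) for tested genes outside the 9, grouped by role; each point is 1 gene, spread vertically for legibility, and red named points have an adjusted p under 0.05. DLK1 at 6.12 and OLIG3 at 4.58 lie farthest to the right, and within most groups red points lie on both sides of 0.

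Of 23 listed proneural bHLH factors, relatives and partners, 14 were below 1 TPM in all libraries and 8 were tested. NEUROG1 was at most 0.0353 TPM, NEUROG2 0.339, ATOH1 0.482 and NEUROD1 0.0247. PTF1A was at 2.14 TPM in replicate 2 of 42 h and at 0 in the other 7 libraries. OLIG3, a bHLH factor of the dorsal hindbrain and spinal cord, was the 1 such factor that was tested. It measured 6.60 and 6.46 TPM at 34 h, 17.3 and 13.0 at 42 h, 25.9 and 20.9 at 50 h, then 194 and 167 at 72 h. Its time points did not overlap and its log2 change at 72 h was 4.58 (SE 0.17, limma adjusted p = 3.40e-06). Of the ID proteins, which block bHLH factors by taking up their partners, ID2 rose at 72 h from 24.3 and 29.3 TPM to 130 and 120. ID1 and ID4 fell, and ID3 did not pass. ID4 reached 1 TPM only in the 2 libraries of 34 h, at 2.29 and 2.71. It entered the test through that time point alone, so its fall adds no support. The call of ID4 was lost without either library of 72 h, and that of ID1 in 8 of 16 alternatives, among them without any 1 of the libraries of 34, 50 and 72 h. Of those partners, TCF4 rose by 0.68 at 42 h, 0.90 at 50 h and 0.59 at 72 h on the log2 scale, with limma adjusted p-values of 0.0103, 0.00152 and 0.00409. Its 42 h call was lost without any 1 of the libraries of 34 and 42 h, and TCF3 and TCF12 did not pass.

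The genes whose pattern was most like that of a called member were sought by Pearson correlation of log2(TPM + 1) over the 8 libraries among 1494 genes that changed in mean by at least 1 on the log2 scale and reached a mean of 5 TPM. For NOTCH2 these were COL5A1 (r = 0.993), MFNG (r = 0.989) and METRN (r = 0.979). For NOTCH3 they were PCDHGC3 (r = 0.990), C4orf48 (r = 0.985) and NR6A1 (r = 0.985), and for JAG1 EPB41L3 (r = 0.980), NIN (r = 0.957) and ZEB2 (r = 0.950). Among the members, NOTCH2 and NOTCH3 had r = 0.909, NOTCH3 and JAG1 r = 0.807, and HES1 had r between -0.51 and 0.42 with each of the other 7 tested members. These are descriptions over 8 libraries that share their time points, and no p is given.

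Marker lists of cell types were read beside the members. Summed pluripotency markers went from 4338 to 4380 TPM at 34 h to 1938 to 2047 at 72 h, and 8 of the 11 tested fell at 72 h, where 11.3% of all tested genes were lower. Summed neural progenitor markers went from 650 to 672 TPM at 34 h to 1146 to 1241 at 72 h. Of the 13 tested, 9 rose at 72 h, where 12.7% of all tested genes were higher, and HES5 was the 1 untested gene of that list. PAX6 and POU3F2, among the 9, passed the filter only through their 72 h libraries, so their rises add no support. The part of the pluripotency and neural progenitor markers in the rise of NOTCH2, NOTCH3 and JAG1 was not tested. Endothelium also carries NOTCH receptors and JAG1: its defining genes PECAM1 and CDH5 were at most 0.620 and 0.435 TPM, while the summed list of 10 went from 33.1 to 33.7 TPM at 34 h to 43.1 to 46.1 at 72 h. Of the 5 tested genes of that list 4 were called at 72 h, beside 24.0% of all tested genes: TEK rose from 16.8 and 16.3 TPM at 34 h to 32.7 and 32.3, VWF rose from 0.366 and 0.269 to 2.51 and 3.45, and ERG and KDR fell. The call of ERG was lost without any 1 of the libraries of 34 and 72 h. Presomitic mesoderm uses LFNG, DLL1, DLL3 and HES7: MSGN1 was at 0 in all libraries, TBX6 at most 1.07 TPM and MESP2 at most 1.56. PCDH8 of that list measured 3.46 and 1.74 TPM at 34 h and 5.10 and 4.98 at 50 h, then 22.2 and 25.6 at 72 h, where it was higher than at 34 h by 2.83 on the log2 scale (SE 0.24, limma adjusted p = 0.000141). The summed list of 14, which holds LFNG, DLL1 and DLL3, lay at 53.4 to 58.7 TPM at 34 h, 26.5 to 34.1 at 42 and 50 h and 50.8 to 54.3 at 72 h. The summed mesendoderm list of 12 lay at 14.5 to 17.4 TPM at 34 h, 26.2 to 29.9 at 42 h, 19.4 to 21.2 at 50 h and 9.21 to 10.4 at 72 h. Of its 6 tested genes the F-test of limma called 5, beside 17.4% of all tested genes. These did not all move alike. Against 34 h, limma called 2 higher at 42 h, beside 2.58% of all tested genes. At 50 h it called 2 higher and 1 lower, beside 6.26%, and at 72 h 1 higher and 1 lower, beside 24.0%. TBXT, a factor of the primitive streak, measured 0.831 and 1.16 TPM at 34 h, 11.4 and 7.92 at 42 h, then 1.62 and 1.87 at 72 h. The summed neural crest list of 10 lay at 30.3 to 35.2 TPM at 34 h and 39.2 to 44.4 in the later libraries. The F-test called 4 of its 7 tested genes, beside the same 17.4%: FOXD3, PAX3, SNAI2 and SOX9. These did not all rise. Against 34 h, limma called 1 higher and 1 lower at 42 h, and 2 higher and 1 lower at 50 h and again at 72 h. The shares of all tested genes were 2.58%, 6.26% and 24.0%. The part of these lists in the members' values was not tested.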

How the data were processed

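RNA-seq of 8 ESI017 libraries, 2 at each of 4 time points, was deposited by the authors as 1 table of TPM per Ensembl gene, with all 8 columns used. Each column sums to 1000000. Salmon 1.9.0 and the build GRCh38 are named in the submitters' processing notes; the annotation, options and filters are not given in the sources used here. TPM of rows sharing a symbol were summed (1034 symbols, DLL1 and HES5 among them). Positions come from GENCODE release 29 and promoters from RefSeq on GRCh38.p14.

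Values were taken as log2(TPM + 1), and genes reaching 1 TPM in 2 or more libraries were kept. The linear model of limma 3.58.1 (R 4.3.3) held a mean for each time point over all 8 libraries, with a variance trend and two-sided tests, adjusted by Benjamini-Hochberg over all 14908 genes, since 2 libraries per time point leave few degrees of freedom in a pairwise fit. The procedure was tested on simulated data. The replicate number is also the batch in the labels, so it pairs the libraries. Across genes, deviations of same-numbered libraries correlated at 0.0949, 0.195 and 0.142 among 34, 42 and 50 h and at -0.0445, -0.0779 and -0.104 between 72 h and those.

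Alternatives were a pseudocount of 0.1, no filter, trimmed mean of log ratios (TMM) factors, quantile normalization, a fit of the compared time points alone, a replicate block, no variance trend and leaving out each library; primary-assembly rows alone were added after the data were seen. The 9 members and the gene lists were chosen with earlier results of these data known. Genes named are the members, list genes that passed a test or bear on a statement about their list, and the 3 genes most correlated with each member that passed the F-test. Results of some list genes are not reported here.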

Additional observations from a re-analysis of the deposited data

How the results depend on the processing

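Of 760 member values under the alternatives, 709 kept direction and side of the threshold, 12 lost a call, 10 gained one and 29 changed sign. DLL1 changed sign on primary-assembly rows alone, to -0.22 at 50 h and -0.37 at 72 h, and with a pseudocount of 0.1 to 0.026 from 50 to 72 h. HES6 from 42 to 50 h was -0.023 with TMM factors and -0.036 with quantile normalization. The replicate block gave 1 called member at 50 h (NOTCH3) and 7 called genes from 42 to 50 h, and changed no other member's call; without a filter that count was 8, without a variance trend 27, against 14. With the compared time points alone the counts over all genes were 171 at 42 h, 431 at 50 h, 0 from 42 to 50 h and 367 from 50 to 72 h, with fewer libraries in the fit.

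Leaving out each library in turn gave 160 to 385 called genes at 42 h, 412 to 809 at 50 h, 1840 to 3661 at 72 h, 1 to 8 from 42 to 50 h, 319 to 929 from 50 to 72 h and 1158 to 2508 by the F-test. Members called ranged from 0 to 1 at 50 h, 0 to 1 from 50 to 72 h and 1 to 4 by the F-test. In the same way log2 changes at 42 h spanned -0.18 to 0.13 for NOTCH1, -0.20 to 0.13 for NOTCH2, -0.24 to 0.16 for DLL1 and -0.089 to 0.31 for DLL3. At 50 h they spanned -0.26 to 0.10 for NOTCH1, -0.31 to 0.58 for DLL1 and -0.70 to 0.11 for DLL3, and at 72 h -0.061 to 0.17 for DLL3 and -0.27 to 0.25 for HES1. From 42 to 50 h they spanned -0.24 to 0.12 for NOTCH1, -0.27 to 0.62 for DLL1, -0.81 to 0.0039 for DLL3 and -0.43 to 0.46 for HES6. From 50 to 72 h they spanned -0.45 to 0.44 for DLL1, -0.058 to 0.76 for DLL3 and -0.62 to 0.26 for HES6. The causes were not tested. By the F-test, NOTCH2 was called in 9 of 15 alternatives and lost with no filter, no variance trend and without either library of 42 h or of 72 h. NOTCH3 was lost without replicate 2 of 72 h and JAG1 without replicate 1 of 34 h or of 72 h. Where 1 library was left out, the other of its time point was assumed to vary like the rest. TPM holds no depth, so the counting error of low genes such as DLL1, DLL3 and HES5 is unknown.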

Other observations

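Neuronal differentiation genes, which follow proneural activity in the embryo, moved in both directions at 72 h. Of 16 tested genes of that list 4 rose and 3 fell at 72 h against 34 h in limma, beside the 24.0% of all tested genes that were called. INSM1, 1 of the 3 that fell, reached 1 TPM only in the 2 libraries of 34 h, at 1.10 and 1.09. It entered the test through that time point alone, so its fall adds no support. STMN2, a tubulin-binding protein of growing neurites, rose from 0.320 and 0.256 TPM at 34 h to 8.01 and 7.10 at 72 h. MAP2, a microtubule protein of dendrites, rose from 29.7 and 27.6 to 69.8 and 65.3 TPM, and BTG2, an antiproliferative gene, and DCX, a protein of migrating neurons, rose too. GADD45G, a stress and cell cycle gene that proneural factors also induce, fell from 20.8 and 23.7 TPM at 34 h to 2.37 and 2.25 at 42 h and 1.70 and 0.636 at 72 h. INSM1 and ELAVL2 fell at 72 h, and their calls and that of DCX were lost without either library of 72 h. That of ELAVL2 was also lost without either library of 34 h, and that of DCX without replicate 2 of 34 h. TUBB3, a neuronal tubulin, measured 261 and 210 TPM at 34 h and 168 and 201 at 72 h and did not pass.

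Of 13 tested neural progenitor genes 9 rose at 72 h, where 12.7% of all tested genes were higher, while HES5 of the same list was listed at 0 in both 72 h libraries. Of the 9, PAX6 and POU3F2 passed the filter only through their 72 h libraries. LHX2 of that list measured 0.785 and 0.176 TPM at 34 h, 3.50 and 2.82 at 42 h, then 0.854 and 0.631 at 72 h. SOX1, a factor of the early neural plate, rose from 1.63 and 2.14 TPM at 34 h to 56.5 and 45.2 at 72 h, with a log2 change of 4.16 (SE 0.19, limma adjusted p = 6.53e-06). SOX2 rose from 224 and 211 to 348 and 333 TPM, and PAX6 from 0.0270 and 0.281 to 4.01 and 3.59 TPM.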
